A study of Mus musculus with 7 samples.

Results

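The 4 Fyn-KO libraries of a mouse glioblastoma series are described here on their own, out of 7 libraries in all. The other 3 are WT. Each library holds the RNA of tdTomato-positive tumour cells sorted by flow cytometry from an adult C57BL/6 mouse with glioblastoma, and the genotype label is FYN-KO for the 4 and WT for the 3. According to the labels, cells were sorted and libraries were made separately. The sources used here do not say how the tumours were made, which cells carry tdTomato or which part of Fyn was removed. The members were the 4 Fyn-KO columns of the deposited count table, taken as counts per 1000000 counts of the column total (CPM). Genes at 100 CPM or more in each of the 4 columns were taken as the abundant set, and no test was made against WT. QuantSeq reads a tag at the 3' end of each polyadenylated transcript, so CPM were not divided by gene length.

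Fyn is a membrane-anchored tyrosine kinase of the Src family that acts in oligodendrocyte maturation and myelination. Tumour cells of glioblastoma usually carry glial programmes, such as those of oligodendrocyte progenitors (Olig1, Olig2, Sox10, Pdgfra) or astrocytes (Gfap, Slc1a3). Steroid hormones are made in the ovary, testis, adrenal gland and placenta, where StAR moves cholesterol into mitochondria, CYP11A1 cuts its side chain to give pregnenolone, and 3-beta-hydroxysteroid dehydrogenase turns pregnenolone into progesterone. The corpus luteum, the progesterone-making body that forms from an ovulated follicle, is kept active in rodents by prolactin through its receptor Prlr.

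The abundance ranking went against the label of glioblastoma cells. By mean CPM, Cyp11a1, Hsd3b1 and Star held ranks 3, 4 and 5 and Prlr rank 24. Glial genes were uneven between libraries. The oligodendrocyte lineage factors Olig2 and Sox10 lay at 4.91 to 23.0 CPM in replicates 1 and 2 and at 54.1 to 157 CPM in replicates 3 and 4. The source of the steroid-hormone transcripts was not tested, and the libraries are called the Fyn-KO libraries throughout.

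Replicate 3 stood apart from the other Fyn-KO libraries. The libraries held 9385117, 10396507, 9135724 and 8976745 counts in replicates 1 to 4, with 13899, 13762, 14548 and 13535 genes at 1 or more counts. Rn45s, the precursor of ribosomal RNA, took 10.5 to 11.0% of the counts in replicates 1, 2 and 4 and 16.6% in replicate 3, and the counting error of these shares is below the last digit given. Over the abundant genes, any pair among replicates 1, 2 and 4 differed by a median of 1.09- to 1.11-fold, and replicate 3 differed from each of them by 1.25- to 1.27-fold. At most 1 gene of the set differed by more than 2-fold between a pair of replicates 1, 2 and 4, against 69 to 84 genes in the pairs with replicate 3. No library looked like a second reading of another library, because the lowest median chi-square of a pair was 11.3 and counting noise alone gives 0.455. This measure cannot tell whether libraries share their starting material. Results that rest on replicate 3 are given with and without it.

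**Figure D1:**
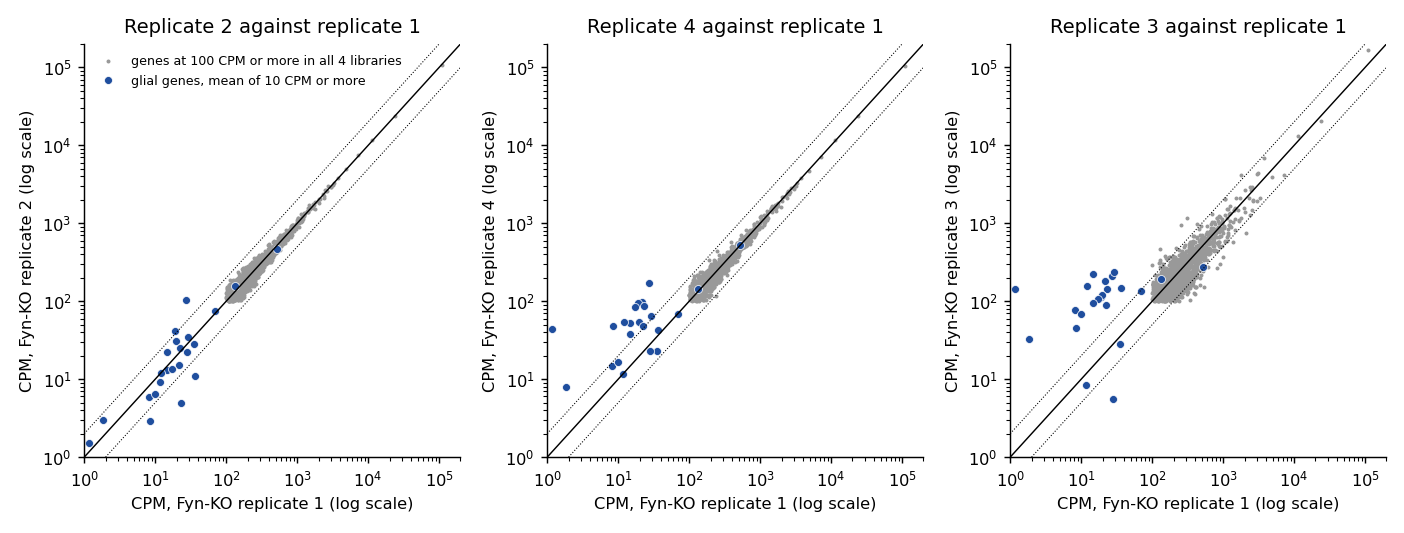
CPM of replicates 2, 4 and 3 (vertical axes, log scale) against replicate 1 (horizontal axis, log scale) for the 1408 abundant genes (grey) and the 25 glial genes with a mean of 10 CPM or more (blue); the solid line marks equal values, the dotted lines a 2-fold difference, and the 2 glial genes with no count in replicate 1 are not drawn. Abundant genes keep to the line in replicates 2 and 4 and scatter more in replicate 3, and most glial genes lie above the line in replicates 3 and 4.

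Fyn itself was counted in every Fyn-KO library. The gene (ENSMUSG00000019843.14, GRCm38 chr10:39368855-39565381, plus strand) stood at 105, 106, 74.5 and 190 CPM in replicates 1 to 4 (119 ± 49.5, SD, n = 4). Replicate 4 was the highest and replicate 3 the lowest. The WT libraries stood at 1039, 719.9 and 1604 CPM. A 3' tag from outside the altered part of a gene is counted whether or not the protein is made. The next members of its family by level, Lyn, Frk, Yes1 and Src, lay at means of 27.3, 20.4, 16 and 13.7 CPM, and Fgr had no count.

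Of 23282 genes in the table, 16117 had a count in at least 1 Fyn-KO library and 11879 had one in each. The abundant set held 1408 genes, 6.05% of those in the table, and took 62.0 to 65.2% of the counts of each library. Its median mean level was 218.7 CPM, against 16.4 CPM over all genes with a count. Within the set, 41 genes stood at 1000 CPM or more in each library and 843 had their lowest library between 100 and 200 CPM. Without replicate 3 the set held 1654 genes, 246 more. In the 3 WT libraries, 983 genes stood at 100 CPM or more in each, and 577 were on both lists, 41.0% of the Fyn-KO list and 58.7% of the WT list.

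The ranking opened with nuclear and ribosomal RNA and went straight to steroid synthesis. Rn45s stood first at 109780, 106581, 166325 and 105460 CPM, and Malat1, a nuclear non-coding RNA, second at 24102, 23488, 20263 and 23886 CPM. The next 3 ranks belonged to Cyp11a1, Hsd3b1 and Star, in the same order without replicate 3. Cyp11a1 (chr9:58006411-58027023, plus strand) stood at 11509.5, 11689, 13175 and 11562 CPM (11984 ± 798). Replicate 3 was the highest, and the other libraries lay within 1.02-fold of each other. Hsd3b1 (chr3:98852194-98859794, minus strand), the enzyme of the progesterone step, stood at 7241, 7552, 4119 and 7112 CPM (6506 ± 1602). Here replicate 3 was the lowest, and the ratio of the highest to the lowest library fell from 1.83 to 1.06 without it. Star (chr8:25806555-25815982, plus strand) stood at 4853, 4917, 3962 and 4672 CPM (4601 ± 439), again with replicate 3 lowest. Prlr (chr15:10177238-10349180, plus strand) ranked 24th at 1958, 1916, 1556 and 1613 CPM (1761 ± 205). In the WT libraries Cyp11a1 stood at 4.46, 0 and 144 CPM and Prlr at 0.0783, 0.122 and 0 CPM, values given for orientation only. In bulk RNA, fewer cells of a type and less RNA per cell cannot be told apart.

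**Figure D2:**
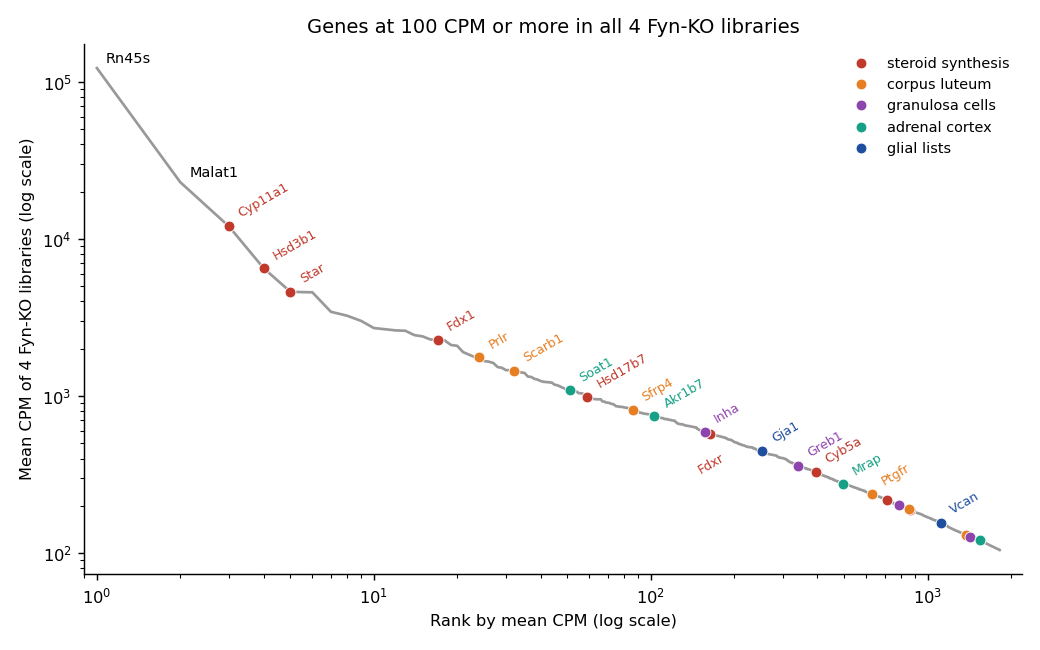
Mean CPM over the 4 Fyn-KO libraries (vertical axis, log scale) against rank by mean CPM among all genes (horizontal axis, log scale) for the abundant genes; coloured points mark members of 5 groups of lists, a gene on several lists takes the colour of the first in the legend, and names are left out at the lower end except for glial genes. Steroid synthesis genes hold ranks 3, 4 and 5, and the first glial gene, Gja1, stands at rank 253.

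Among the 30 highest genes, several others serve steroid-making cells or the supply of reduced cofactors. Hmgcs1, an early enzyme of cholesterol synthesis, ranked 10th at 3018, 2952, 1959 and 2899 CPM. Fdx1, the ferredoxin that passes electrons to CYP11A1, ranked 17th at 2572, 2659, 1477 and 2383 CPM. Both were lowest in replicate 3. Me1 and Idh1, cytosolic enzymes that yield NADPH, stood at 2678, 3020, 1908 and 2853 CPM and at 2111, 2045, 748 and 2200 CPM. Idh1 had the largest ratio of highest to lowest library among the 30, 2.94, and 1.08 without replicate 3. Gpx3, a secreted glutathione peroxidase, went the other way, with 1759 CPM, 1533 CPM and 1661 CPM in replicates 1, 2 and 4 and 4208 CPM in replicate 3. Akr1cl, an aldo-keto reductase, stood at 2002, 1830, 2658 and 1957 CPM, and none of the WT libraries held a count of it. Prkar2b, a regulatory subunit of the cyclic AMP-dependent kinase, stood at 1786, 1853, 1182 and 1796 CPM. Adh1, an alcohol dehydrogenase, stood at 1521, 1536, 2114 and 1507 CPM. Others of the 30 were genes that most cells use, such as Actb, Hsp90ab1, Ybx1, Rplp1, Rps14, Tpt1, Eef2, Hspa5 and Sod1, and the matrix protein gene Sparc. Wdr89, ranked 30th, and the pseudogene Rplp2-ps1 differ by at most 1 count in each library and cannot be told apart.

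Of the 20 genes of the steroid hormone synthesis list, 9 were abundant (45%, against 6.05% of all genes), with and without replicate 3. Besides the genes above they were Hsd17b7, Fdxr, Cyb5a, Tspo and Por. Fdxr, the reductase that feeds ferredoxin, stood at 626, 557, 583 and 519 CPM. Tspo, a protein of the outer mitochondrial membrane, stood at 240, 225, 188 and 217 CPM. Of the other 11 members, the highest were Cyp11b1, the last step to corticosterone, at 70.9, 104, 67.3 and 95.5 CPM, and Srd5a1, a 5-alpha-reductase, at 57.8, 48.8, 53.0 and 104 CPM. Cyp17a1, which opens the way to androgens, stood at 14.4, 39.5, 26.7 and 31.0 CPM, and Cyp19a1, the aromatase that makes estrogens, at 6.50, 13.1, 4.49 and 7.91 CPM. Cyp21a1 of the adrenal cortex stood at 1.49, 0, 0.547 and 0 CPM. Cyp11b2, the aldosterone synthase, and Hsd17b3, the testosterone-forming enzyme of the testis, had no count in any Fyn-KO library, where 3 counts amount to 0.289 to 0.334 CPM. Cyp11a1, Hsd3b1 and Star, which take cholesterol to progesterone, were the 3 highest of the list. Tags of the near-identical Hsd3b genes can be assigned to either copy, and Hsd3b2 and Hsd3b6 stood at 0 to 4.27 CPM.

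The corpus luteum list had the largest share of abundant members apart from cholesterol synthesis, which equalled it, at 7 of 10 genes (70%). Scarb1, the receptor that takes up cholesterol from lipoproteins, stood at 1671, 1579, 1077 and 1442 CPM. Sfrp4, a secreted Wnt antagonist, stood at 873, 922, 578 and 863 CPM. Ptgfr, the receptor of the luteolytic prostaglandin F2-alpha, stood at 249, 256, 193 and 250 CPM, and Lhcgr, the receptor of luteinizing hormone, at 131, 146, 107 and 140 CPM. All 4 of these genes were lowest in replicate 3. Hsd17b7, found as a prolactin receptor partner and as an enzyme of estradiol and cholesterol synthesis, stood at 1067, 1142, 592 and 1145 CPM. Members below the line were Parm1 at a mean of 68.4 CPM, Pgr, the progesterone receptor, at 0 to 3.94 CPM, and Akr1c18, which inactivates progesterone, at 22.1, 13.4, 7.44 and 25.8 CPM.

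Of the 15 ovarian granulosa genes, 4 were abundant (26.7%), and 5 without replicate 3. Inha, the inhibin alpha chain, stood at 651, 603, 432 and 676 CPM. Greb1, an estrogen-responsive gene, stood at 319, 354, 391 and 367 CPM, and Nr5a2, a nuclear receptor that drives luteal steroid genes, at 182, 240, 207 and 177 CPM. Kitl, the KIT ligand, was the fourth, at a mean of 127 CPM. Foxl2, a transcription factor that keeps granulosa cell identity, stood at 175, 211, 85.5 and 188 CPM and missed the set through replicate 3 alone. Below the line, Inhba, the inhibin beta A chain, stood at 83.1, 79.5, 117 and 87.8 CPM, and Amhr2, Inhbb and Fst had means of 58.2, 46.7 and 34.9 CPM. Fshr, the receptor of follicle-stimulating hormone, stood at 1.07, 7.98, 0 and 8.58 CPM. Amh, the anti-Mullerian hormone, stood at 1.07 CPM in replicate 1 and had no count in the others. None of the 16 oocyte genes was abundant. Gdf9, an oocyte growth factor, stood at 17.8, 15.6, 20.1 and 8.80 CPM, 15 of the 16 had a count in at least 1 library, and Figla had none. The oocyte genes summed to 104, 63.2, 67.2 and 71.0 CPM and had no count in WT.

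**Figure D3:**
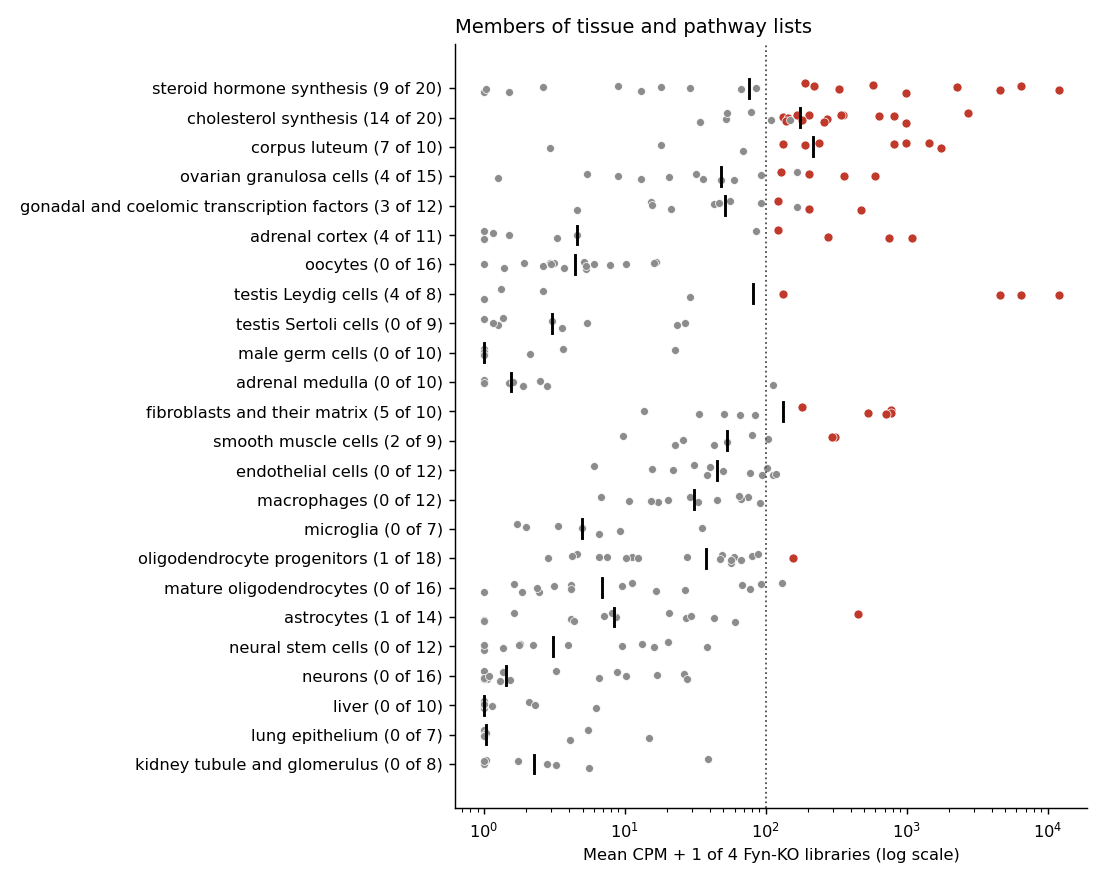
Mean CPM plus 1 over the 4 Fyn-KO libraries (horizontal axis, log scale) of each member of 24 lists (rows); red points are abundant genes, grey points are not, black bars are medians, the dotted line marks 100 CPM, and the numbers in brackets give abundant members of all members. Corpus luteum and cholesterol synthesis have the highest medians, and members of the glial, neuronal, liver, lung and kidney lists lie left of the line but for Gja1, Vcan and Mbp.

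Nr5a1 and Nr5a2 encode nuclear receptors that bind the half-site AGGTCA in steroid genes, and both were abundant, Nr5a1 at 116, 129, 129 and 108 CPM. The letters AGGTCA, searched on both strands in 250 bases upstream of each RefSeq start (GRCm38.p6), were in the windows of 15.8% of 27025 genes. They were in 13.1% of the 1088 abundant genes with a window, in 2 of 12 steroid synthesis genes, 2 of 8 luteal genes and 5 of 12 granulosa genes, and in 4 of 35 glial genes. The longer form AAGGTCA, which holds the shorter one, was in 4.70% of all genes and in no steroid synthesis or luteal window. Below are windows of Cyp11a1, Hsd3b1 and Lhcgr, 5' to 3' on the gene's strand, to show where the letters stand. Capitals mark AGGTCA. The Cyp11a1 window is 1 of 2 that RefSeq gives (chr9:58014702-58014951, plus strand), and the other does not hold the letters. The Hsd3b1 window (chr3:98859795-98860044, minus strand) does not hold them either, and that of Lhcgr (chr17:88792015-88792264, minus strand) does.
Cyp11a1: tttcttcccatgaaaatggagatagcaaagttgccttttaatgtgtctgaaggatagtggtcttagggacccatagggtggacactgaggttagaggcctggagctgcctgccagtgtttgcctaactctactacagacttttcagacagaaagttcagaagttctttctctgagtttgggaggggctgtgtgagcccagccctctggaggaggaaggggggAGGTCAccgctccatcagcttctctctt
Hsd3b1: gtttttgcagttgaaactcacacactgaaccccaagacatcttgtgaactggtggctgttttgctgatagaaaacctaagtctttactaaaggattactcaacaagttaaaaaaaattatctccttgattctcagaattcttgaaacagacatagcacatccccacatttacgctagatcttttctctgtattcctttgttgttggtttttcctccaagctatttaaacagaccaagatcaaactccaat
Lhcgr: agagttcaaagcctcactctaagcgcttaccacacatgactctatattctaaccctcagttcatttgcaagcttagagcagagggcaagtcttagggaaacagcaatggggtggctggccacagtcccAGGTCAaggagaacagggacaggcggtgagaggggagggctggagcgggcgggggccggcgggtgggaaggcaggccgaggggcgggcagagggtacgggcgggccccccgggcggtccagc
A match is a run of letters, not a binding site, and the shares in the lists rest on few windows.

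Genes that make or supply cholesterol, the raw material of steroids, were abundant as a group. Of 20 cholesterol synthesis genes, 14 were abundant (70%), and 16 without replicate 3. After Hmgcs1 and Hsd17b7 the highest were Msmo1 at 817, 932, 674 and 811 CPM, Cyp51 at 641, 648, 547 and 697 CPM and Fdps at 365, 326, 349 and 368 CPM. Idi1 missed the set through replicate 3, at 166, 182, 64.6 and 175 CPM. Of 12 genes of uptake, storage and transport, 6 were abundant. Among them were Apoe, a lipoprotein ligand, at 1253, 1325, 1349 and 1219 CPM, Soat1, which esterifies cholesterol for storage, at 1029, 1178, 917 and 1223 CPM, and Abca1, a cholesterol exporter, at 977, 975, 513 and 922 CPM.

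Lists of other steroid-making organs shared part of this pattern, and several of their defining genes were at or near 0. Some members of the granulosa and luteal lists, such as Amh, Fshr and Pgr, were also low, as given above. Of the 11 adrenal cortex genes, 4 were abundant, namely Soat1, Akr1b7, Mrap and Nr5a1. Akr1b7, an aldo-keto reductase, stood at 815, 660, 832 and 670 CPM and Mrap, the accessory protein of the corticotropin receptor, at 289, 275, 248 and 297 CPM. Mc2r, the corticotropin receptor itself, and Cyp11b2 had no count, but Cyp11b1 of the same list stood at 70.9, 104, 67.3 and 95.5 CPM. The Leydig cell list had 4 of 8 abundant, Cyp11a1, Hsd3b1, Star and Lhcgr, all of them on the steroid or luteal lists too. Insl3, a hormone of Leydig cells, stood at 1.28 CPM in replicate 1 with no count elsewhere. None of 10 adrenal medulla genes was abundant, and Pnmt, Dbh and Slc18a1 had no count, but Phox2a stood at 120, 112, 80.7 and 132 CPM. The Sertoli cell, male germ cell and trophoblast lists had 0 abundant genes of 9, 10 and 10.

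Transcription factors of the gonad and coelomic lining were counted throughout. All 12 genes of that list had a count in each library, and 3 were abundant, namely Nr2f2 at 465, 467, 537 and 420 CPM, Nr5a2 and Nr5a1. Foxl2 joined them without replicate 3. Gata4, Gata6 and Wt1, which act in gonadal somatic cells, stood at means of 54.5, 42.1 and 45.3 CPM. Hox genes of paralog groups 5 to 13, which mark positions behind the hindbrain, were counted for 20 of 27 genes. This is near the share of all genes, 16117 of 23282 with a count in at least 1 library. Hoxc6 stood at 236, 277, 247 and 254 CPM, even over the 4 libraries, and was the only abundant one (3.70%, against 6.05% of all genes). Hoxd8 stood at 129, 58.3, 109 and 112 CPM and Hoxc8 at 98.9, 120, 51.9 and 83.2 CPM.

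Stromal and blood lists were also counted. Of 10 fibroblast genes, 5 were abundant, led by the collagen genes Col3a1 at 916, 875, 493 and 810 CPM and Col1a2 at 852, 949, 567 and 706 CPM. Of 9 smooth muscle genes, 2 were abundant, Acta2 and Tagln, the second at 240, 245, 454 and 228 CPM. None of the 12 endothelial genes was abundant, although all had a count in each library and Egfl7, Pecam1 and Esam had means of 118, 112 and 101 CPM. Macrophage genes numbered 0 of 12, with C1qa highest at 84.3, 86.4, 125 and 64.5 CPM. Of the microglia list, none of 7 genes was abundant, and P2ry12, a microglial receptor, stood at 2.88 CPM in replicate 1 and had no count elsewhere. Of 5 red blood cell genes, 2 were abundant, Hba-a1 and Hbb-bs, with Hba-a1 at 711, 701, 827 and 666 CPM. Hba-a1 and Hba-a2 are near-identical, and their tags can be assigned to either. T and B lymphocyte genes summed to 2.90 to 10.6 CPM. The lists of mesothelium, epithelium, kidney, liver, lung and pituitary had no abundant gene, and Alb, the liver's albumin, had no count.

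Most of the abundant set lay outside the lists, with 56 of its genes among the 391 on any list. Cytosolic ribosomal proteins gave 71 of 84 genes, ATP synthase subunits 14 of 17, NADH dehydrogenase subunits 21 of 45, cytochrome c oxidase subunits 10 of 18 and proteasome subunits 21 of 40. Collagen chains gave 6 of 45 (13.3%) and clustered histones 2 of 68 (2.94%). The share over all genes was 6.05%. Of the 16 genes of mitosis and DNA replication, Top2a was abundant, at 185, 212, 211 and 208 CPM, and Mki67, a proliferation marker, stood at 72.7, 73.9, 127 and 68.3 CPM.

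The 100 CPM line cut through a dense part of the ranking. Just inside it, by their lowest library, were Klf6, Tab2 and Sphk2 at 100.05, 100.16 and 100.16 CPM, and just outside were Hmg20b, Lig1 and Pnn at 99.94, 99.94 and 99.83 CPM. Because a gene must pass in each library, the set favours even genes, and a rule on the mean gave 1926 genes. Over the set, the median coefficient of variation was 14.9%, and 8.38% without replicate 3. The ratio of highest to lowest library was over 2 in 125 genes (8.88%), and in 2 genes without replicate 3. Replicate 3 was the highest library for 439 genes and the lowest for 661. The 10 largest ratios all came from replicate 3. Hist1h2ap, a histone gene, stood at 253, 216, 941 and 262 CPM, and Hist1h2ao, its near-identical copy, at 129, 108, 464 and 125 CPM. Rn4.5s, a small non-coding RNA, stood at 313, 290, 1177 and 316 CPM. The other 7 were lowest in replicate 3, among them Txnip, an inhibitor of thioredoxin, at 540, 578, 152 and 619 CPM, and Serpinh1, a collagen chaperone, at 397, 364, 124 and 447 CPM.

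Glial genes were uneven over the 4 libraries. Of 48 genes on the lists of oligodendrocyte progenitors, mature oligodendrocytes and astrocytes, 2 were abundant (1 of 18, 0 of 16 and 1 of 14), which is 4.17% and near the 6.05% of all genes. Of the 48, 25 had a mean of 10 CPM or more, 20 were counted below that, and 3 had no count, namely Aqp4, Gjb6 and Ermn. The abundant ones were Gja1, the gap junction protein connexin 43, at 512, 471, 275 and 531 CPM, and Vcan, the proteoglycan versican, at 132, 156, 192 and 142 CPM. Both genes are also used outside glia. Summed over the list, oligodendrocyte progenitor genes stood at 339, 348, 1488 and 743 CPM, mature oligodendrocyte genes at 126, 222, 944 and 454 CPM, and steroid synthesis genes at 28832, 29515, 24705 and 28441 CPM. For orientation, the progenitor genes summed to 19972, 19345 and 11743 CPM in the WT libraries.

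Lineage transcription factors of oligodendrocytes were high in replicates 3 and 4 and low in replicates 1 and 2. Olig2 (chr16:91225457-91228677, plus strand) stood at 23.0, 4.91, 146 and 87.0 CPM. Olig1 stood at 21.9, 15.2, 182 and 98.3 CPM, and Sox10 (chr15:79154908-79165240, minus strand) at 11.9, 11.9, 157 and 54.1 CPM. Replicate 3 exceeded replicate 4 for each of the 3 genes, and both exceeded replicates 1 and 2. Gpr17, a receptor of committed progenitors, stood at 1.17, 1.54, 145 and 44.0 CPM, which is 11, 16, 1324 and 395 counts, a gap between replicates 3 and 4 and the other libraries beyond counting error. Its ratio of highest to lowest library, 124, was the largest among glial genes with a count in each library. Neu4 and Mag had no count in replicate 1 and stood highest in replicate 3, at 30.6 and 45.9 CPM.

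Several receptor and matrix genes of progenitors varied less than Olig1, Olig2 and Sox10, but other progenitor genes did not. Ptprz1 stood at 8.10, 5.96, 76.8 and 14.9 CPM, a ratio of 12.9, and the receptor Gpr17 had a ratio of 124. Pdgfra, the platelet-derived growth factor receptor alpha, stood at 70.4, 74.0, 134 and 69.2 CPM, with replicate 3 alone apart. Cspg4, the NG2 proteoglycan, stood at 22.4, 25.4, 89.5 and 48.7 CPM, and Bcan, the proteoglycan brevican, at 19.5, 30.5, 120 and 53.7 CPM. Cspg5 stood at 17.4, 13.7, 107 and 84.7 CPM. Vcan had the smallest ratio of the 12 progenitor genes at this level, 1.46.

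Myelin genes kept the same order at the top but not at the bottom. Mbp, the myelin basic protein, stood at 27.5, 105, 208 and 173 CPM. Here replicate 2 lay between replicate 1 and replicate 4. Cnp, a myelin phosphodiesterase, stood at 28.7, 34.5, 239 and 64.4 CPM, and Bcas1, a gene of cells that start to myelinate, at 14.7, 13, 226 and 52.6 CPM. Mal was even, at 11.7, 9.23, 8.43 and 11.7 CPM, and was the only one of the 7 mature oligodendrocyte genes at this level that was not highest in replicate 3.

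Astrocyte genes did not move together. S100b, a calcium-binding protein, stood at 14.8, 22.2, 94.0 and 37.8 CPM, highest in replicate 3. Fabp7, a fatty acid-binding protein of radial glia, stood at 8.42, 2.89, 44.9 and 47.6 CPM. Aldh1l1 went the other way, at 27.8, 22.6, 5.58 and 22.8 CPM, as did Gja1. Aldoc was nearly even, at 34.9, 28.3, 28.0 and 22.8 CPM. Gfap, the astrocyte filament protein, stood at 0.959, 0, 11.3 and 0.446 CPM.

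**Figure D4:**
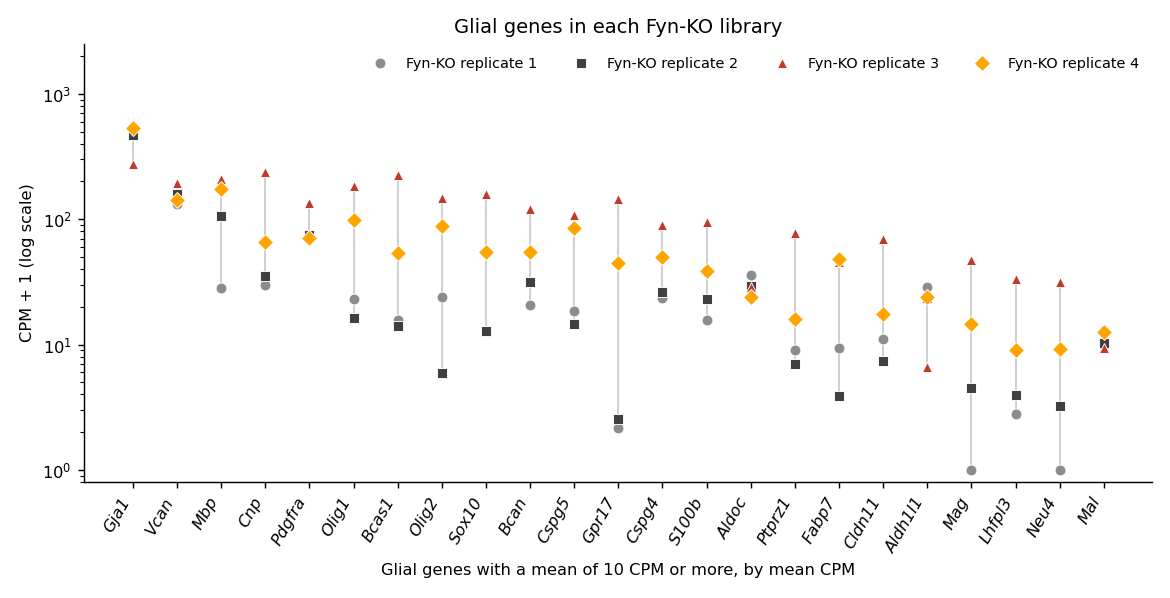
CPM plus 1 (vertical axis, log scale) of glial genes with a mean of 10 CPM or more, in order of mean CPM (horizontal axis), with 2 of the 25 not drawn; each symbol is a Fyn-KO library and grey lines join the lowest and highest. Replicate 3 (red triangles) is highest for most of those drawn, and replicate 4 (orange diamonds) often comes second to it.

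Taken over the 25 glial genes, the median ratio of highest to lowest library was 8.32, with the 2 genes at 0 in a library ranked above all others, and the median coefficient of variation was 90.8%. All 9597 genes with a mean of 10 CPM or more had medians of 1.89 and 27.7%. Without replicate 3 the same 25 genes had medians of 3.95 and 56.3%, and all genes had a median ratio of 1.49. Neu4, Lhfpl3, Ptprz1 and Mag are among the 25 only through replicate 3, with means of 3.49, 4.27, 9.66 and 5.68 CPM without it. With the minimum mean applied again without replicate 3, the median ratio of glial genes was 2.75. These genes are counted in the shares of replicate 3 that follow, and all genes were filtered in the same way. Replicate 3 was the highest library for 20 of the 25 (80%), and for 2401 of the 9597 genes (25.0%). It stood at 2 or more times the mean of the other 3 libraries for 19 of the 25 (76%), and for 481 of the 9597 (5.01%). Replicate 3 came first and replicate 4 second for 18 of the 25 (72%), against 8.49% of all genes. Among replicates 1, 2 and 4 alone, replicate 4 was the highest for 20 of the 25 (80%), against 35.7% of all genes. The median of replicate 4 over the mean of replicates 1 and 2 was 2.15 for the glial genes and 0.996 for all genes. No test was made, since the 4 libraries are of 1 group, and the genes share their libraries and are not replicates.

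By list, replicate 3 was the highest for 12 of 12 progenitor genes, 6 of 7 mature oligodendrocyte genes and 2 of 6 astrocyte genes. Neu4, Lhfpl3 and Ptprz1 of the first list and Mag of the second, all with means of 10 to 30 CPM, reached 10 CPM only through replicate 3. The ratio of glial genes was also above that of all genes at like mean levels, where the mean includes replicate 3. Among genes with a mean of 30 to 100 CPM, 13 glial genes had a median ratio of 8.32 and all 3918 genes one of 1.77. Among those of 10 to 30 CPM, 9 glial genes had one of 12.9 and all 3753 genes one of 2.50. Gpr17, S100b, Sox10 and Bcas1 reached 30 CPM only through replicate 3, with means of 15.6, 24.9, 26.0 and 26.8 CPM without it. The bins thus rest in part on the values that made the spread. Of the 20 glial genes counted below 10 CPM, 12 were highest in replicate 3. The share over all genes below 10 CPM was not computed, so the 12 cannot be read as a trait of glial genes. Replicate 3 also held 1053 genes with fewer than 10 counts, against 496 to 572 in the other Fyn-KO libraries. Of other lists at 10 CPM or more, the nearest was that of neurons, where 3 genes had a median ratio of 4.59 and all were highest in replicate 3 with replicate 4 second. The 4 neural stem cell genes had one of 2.15. Other median ratios were 1.62 for 11 endothelial genes, 2.11 for 10 macrophage genes, 1.83 for 10 fibroblast genes, 1.68 for 14 steroid synthesis genes and 1.46 for 12 granulosa genes. Replicate 3 also had the highest share of Rn45s and the most genes with a count, and the part of these in the glial values was not tested.

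The level of a list in a library, the mean of log2(CPM + 1) over its members with a count in any Fyn-KO library, gave the same order for the oligodendrocyte lists. Oligodendrocyte progenitors stood at 2.79, 2.65, 5.60 and 4.50, a difference of 2.94 between the highest and lowest library, and of 1.84 without replicate 3. Mature oligodendrocytes stood at 2.17, 2.34, 3.99 and 3.37. Astrocytes stood at 3.29, 3.01, 4.61 and 3.57, and the difference of 1.61 fell to 0.57 without replicate 3. Neural stem cell genes stood at 1.36, 1.61, 3.26 and 2.22, with Sox2, a stem cell factor, at 0, 0, 42.0 and 6.57 CPM. Neuronal genes stood at 1.65, 1.51, 2.74 and 1.69, highest in replicate 3.

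Levels of steroid synthesis, corpus luteum and granulosa cells differed less between libraries, and were lowest in replicate 3. The level of steroid synthesis was 6.74, 6.90, 6.56 and 6.83, that of the corpus luteum 7.46, 7.64, 7.22 and 7.50, and that of granulosa cells 5.37, 5.62, 5.06 and 5.50. The Leydig cell list, which shares genes with these, stood at 7.29, 7.54, 7.37 and 7.23, lowest in replicate 4. Fibroblast genes stood at 7.34, 7.19, 6.87 and 7.26, also lowest in replicate 3. Macrophage genes stood at 4.94, 4.51, 4.79 and 4.89, and endothelial genes at 5.56, 5.36, 5.33 and 5.32. In the summed CPM of steroid synthesis, the lowest library, replicate 3, kept 24705 CPM against 28441 to 29515 CPM in the others.

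**Figure D5:**
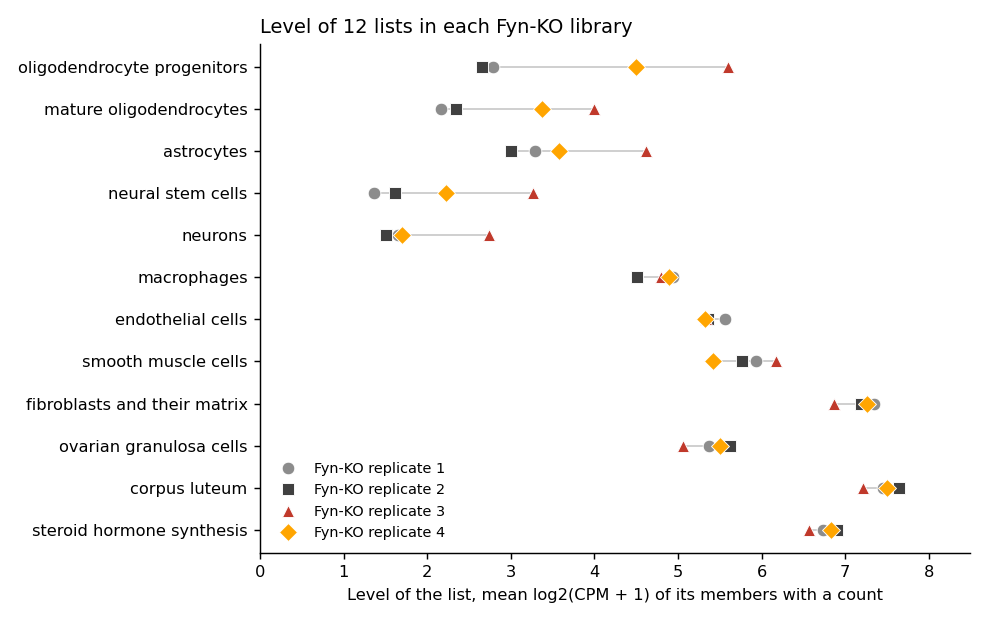
Level of 12 lists, the mean of log2(CPM + 1) over members with a count (horizontal axis), in each Fyn-KO library (symbols), with grey lines from the lowest to the highest. The oligodendrocyte progenitor list spans 2.94 and the steroid synthesis list 0.34.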

How the data were processed

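RNA of sorted tdTomato-positive cells was sequenced with the Lexogen QuantSeq 3' kit, per the labels' protocols. The deposited table holds whole-number read counts per gene and library, which the authors call modified. The sources used here do not say what was modified, or give the annotation and the strand of counting. Per the submitters' processing notes, Bowtie2, bedtools and DESeq2 1.32.0 were used with mm10 (GRCm38). Strand being unknown, overlapping and antisense genes cannot be told apart.

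From the counts, CPM of each column total were computed in Python 3.11.15 with pandas 2.3.3. The table has 23282 entries with 23236 symbols, and 22171 symbols are in GENCODE M21, the source of coordinates. Promoter windows are from RefSeq (GRCm38.p6). Scaling factors for the alternatives came from edgeR 4.0.16 in R 4.3.3. A list's level used a pseudocount of 1 CPM, and glial spread a minimum mean of 10 CPM. With no molecular identifiers, the floor of 3 counts covers counting error only. Nothing was tested between groups. The spread measures were tested on simulated data.

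The members and the 35 gene lists were chosen with earlier results of these data known. Named genes are Fyn, the 4 markers Cyp11a1, Star, Hsd3b1 and Prlr, the 30 highest abundant genes, the 10 with the largest ratio, the 3 on either side of 100 CPM, up to 5 leading members and those without a count of each list, and glial genes at 10 CPM or more. Others, such as Lhcgr, Cyp17a1, Cyp19a1, Cyp21a1, Pgr, Akr1c18, Parm1, Srd5a1, Inhba, Gata4, P2ry12, Fshr, Amh, Insl3, Gfap and Idi1, were named after their values were seen. Alternatives were TMM and RLE factors, totals without Rn45s, other minimums, other pseudocounts and leaving out each library. Some genes that the rule takes are not reported here.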

Additional observations from a re-analysis of the deposited data

Results flagged for a closer look

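In 26 of 97 library shares, list levels and gene values looked at, the highest or lowest of the 4 Fyn-KO libraries stood far from the other 3, by a gap to the nearest of them that took more of the whole range than Dixon's critical value at 95% allows. Chance flags about 1 in 20 groups, and the values share libraries. Replicate 3 was the library apart in 25 of the 26. The exception was the endothelial list, highest in replicate 1 at a level of 5.56.

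Of library shares, replicate 3 had the most counts on Rn45s (16.6%) and on the 10 most abundant genes (23.1%), and the fewest on Malat1 (2.03%). Of list levels, it was highest for adrenal medulla (2.42) and neurons (2.74). Among the adrenal medulla genes, replicate 3 had the highest count for 3 of 10, namely Npy, Chga and Chgb, each below 10 CPM. By summed CPM over the adrenal medulla list, replicate 3 was instead the lowest library. Phox2a, the leading member of that list, was also lowest in replicate 3.

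Genes highest in replicate 3 included Rn45s (166325 CPM), Cyp11a1 (13175 CPM), Actb (6928 CPM), Hsp90ab1 (4486 CPM), Sparc (4284.5 CPM), Gpx3 (4208 CPM), Rplp1 (2952 CPM), Adh1 (2114 CPM) and Eef2 (2112 CPM). The glial genes Cnp (239 CPM), Pdgfra (134 CPM), Ptprz1 (76.8 CPM) and Cldn11 (69 CPM) were also highest there. The genes looked at were chosen by means that include replicate 3. Ptprz1 was among them only through that library, with a mean of 9.66 CPM without it. Adh1 ranked 25th with replicate 3 and 31st without it. Genes lowest in replicate 3 were Malat1 (20263 CPM), Hsd3b1 (4119 CPM), Ybx1 (2130.1 CPM), Wbp5 (2008 CPM), Hmgcs1 (1959 CPM), Prkar2b (1182 CPM) and Idh1 (748 CPM).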

How the results depend on the processing

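Of 125 alternative values of 16 results, 114 stayed within 1.5 times the main count, ratio or coefficient of variation or, for a list level, within the spread between libraries. The other 11 moved further. The abundant set held 2949 genes at a minimum of 50 CPM, 565 at 200 CPM, and 1435, 1433 and 1671 with TMM factors, RLE factors and totals without Rn45s. Leaving out a library gave 1446 to 1654 genes. It gave 0 to 1 abundant mature oligodendrocyte genes, the 1 being Mbp without replicate 1. The median ratio of glial genes was 8.32 and, leaving out a library, ranged from 2.75 (without replicate 3, with the minimum mean applied again) to 10.7. Leaving out a library, the difference between the highest and lowest library in list level ranged from 1.84 to 2.94 for progenitors, 1.20 to 1.83 for mature oligodendrocytes, 0.62 to 1.61 for astrocytes and 0.17 to 0.36 for steroid synthesis. These levels used only members with a count in the libraries kept. The 0.57 given above for astrocytes used members with a count in any Fyn-KO library. For progenitors it was 3.08 with TMM factors and 3.09 with RLE factors and with totals without Rn45s. With a pseudocount of 0.1 CPM it was 3.77 for progenitors, 2.80 for mature oligodendrocytes and 2.32 for astrocytes. As log2 of summed CPM it was 2.13 for progenitors, 2.91 for mature oligodendrocytes and 0.33 for astrocytes. Summed astrocyte values are led by Gja1, which was lowest in replicate 3. No paired analysis was possible because only libraries of 1 group were described and no test was made.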

Other observations

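The genes that spread most between the Fyn-KO libraries were looked at after their values were seen. Of 7390 genes with a mean of 20 CPM or more, 48 (0.650%) had a highest library more than 8 times the lowest, and 39 of them were highest in replicate 3, 6 in replicate 4 and 3 in replicate 1 or 2. Of the 20 glial genes at this level, 10 were among the 48. Gpr17, Ptprz1, Fabp7 and Cldn11 of these did not reach 20 CPM without replicate 3, with means of 15.6, 9.66, 19.6 and 11.0 CPM. Examples of the 48 outside the glial lists follow. Tubb2b, a neuronal tubulin, stood at 42.1, 42.5, 444 and 247 CPM in replicates 1 to 4, and Nfasc, a cell adhesion protein of axons and glia, at 2.77, 1.73, 165 and 22.6 CPM. Gpr37l1, a receptor of astrocytes, stood at 2.88, 2.98, 112 and 33.3 CPM, and Ncan, the brain proteoglycan neurocan, at 0.107, 2.12, 64.0 and 38.0 CPM. Nfasc, Gpr37l1 and Ncan did not reach 20 CPM without replicate 3 either, with means of 9.04, 13.1 and 13.4 CPM. The 39 genes highest in replicate 3 thus include some that passed the minimum only through that library. Plekhh2, at the top of this group by mean level, stood at 22.6, 46.7, 916 and 9.02 CPM, high in replicate 3 alone. Ddx49, an RNA helicase, stood at 5.11, 41.9, 62.2 and 37.9 CPM.

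Transcripts of the X inactivation centre were even in the 4 Fyn-KO libraries. Xist stood at 570, 599, 548 and 552 CPM, and Tsix, which overlaps it on the other strand and cannot be told apart from it without strand, at 491, 525, 396 and 469.5 CPM. The Y-linked genes Ddx3y, Eif2s3y and Kdm5d had no count in these libraries, and Uty had 31 counts in replicate 1 and none in the others. These genes were also chosen after their values were seen.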
